A study of Mus musculus with 6 samples.

Results

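The genes of cholesterol synthesis, uptake and transport were followed in EGFP-high and EGFP-low cells sorted from the surface epithelium of the mouse ovary. The set was a named list of 34 genes. A gene entered through the probe sets that the platform annotation pairs with its symbol alone, and the brightest probe set by mean over the 6 arrays stood for it. By that rule 31 of the 34 were measured, among 22180 named genes in all. No probe set was named for Acat2 or Soat1, and the one probe set of Idi1 carries a second symbol, so these 3 have no values here.

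The donors were female mice of the Lgr5-eGFP-CreERT2 line, 8 to 12 weeks old, with EGFP and a tamoxifen-inducible Cre at the Lgr5 locus. Both populations carried the allele, and neither received a treatment, per the labels. Each population had 3 arrays with material of 8 mice pooled on each, described by the submitters as technical replicates, so p-values measure the spread between arrays and not between animals. Levels are log2 values after RMA, an array method that corrects background, equalises the arrays and summarises the probes of a set, and a level can be compared between arrays for 1 gene but not between genes.

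Animal cells make cholesterol from acetyl-CoA through mevalonate, farnesyl diphosphate, squalene and lanosterol, and they also take it up from lipoproteins. When membrane sterol is low, SCAP carries the SREBP transcription factors from the endoplasmic reticulum to the Golgi, where they are cut and released to switch on the enzymes of the path. INSIG proteins hold SCAP back when sterol is plentiful. Liver X receptors act on the other side and raise the transporters that export cholesterol. In the ovary, luteal and theca cells use cholesterol as the substrate of steroid hormones, whereas the surface epithelium is not known as a steroid-producing layer.

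The 6 deposited columns are not 6 separate readings. Over 41345 probe sets, high 2 was the average of high 1 and high 3 (SD of the remainder 4.75e-06). Low 1 was the average of low 2 and low 3 plus 0.75 times the difference of high 3 and high 1 (SD of the remainder 6.21e-06). Only 4 of the 6 columns are thus independent, 2 of them in the high population. The labels and headers do not describe such a step. Array sets were therefore formed from the relations, and no label gives them. High 1 and low 1 form one set, high 3 with both remaining low arrays another, and high 2 stands by itself. The main test has these array sets as a term and 2 residual degrees of freedom, with a threshold of 0.05 on the adjusted p. Lgr5, the gene whose locus drives EGFP, read 7.84, 7.76 and 8.01 on the low arrays and 8.996, 8.97 and 8.94 on the high arrays. Its difference of 1.10 (95% limits 0.62 to 1.57) checks the sort and is no finding of its own. Of 14 markers of the surface epithelium, 13 were above 0, with a median difference of 0.22. All 14 lie in the brightest of 4 equal groups by mean level, where 71.5% of all genes were above 0.

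Across the 31 genes the synthesis enzymes mostly read higher in the EGFP-high cells, and uptake and efflux genes mostly read lower. Of 16 enzymes of synthesis, 13 had a positive difference, where 53.8% of all genes did, with a median of 0.30 on the log2 scale. In the brightest and next of 4 equal groups by mean level, which hold these enzymes, 71.5% and 60.4% of all genes did. Of 10 genes of uptake, transport and ester hydrolysis, 7 had a negative difference, with a median of −0.16. Further genes of these roles, given below, did not split in this way. The largest difference in either direction was that of Vldlr, a lipoprotein receptor with a log2 difference of −1.59 (95% limits −2.35 to −0.83). It rests on 3 arrays each, of which those of the high population hold 2 independent readings. In a bulk sample such values cannot tell fewer cells of a type from less RNA per cell.

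Limma called 0 of the 31 genes with the array-set term, where 0.00451% of all genes were called, and the smallest adjusted p among the 31 was 0.751. At an unadjusted p under 0.05 that fit had 5 of the 31, where 5.92% of all genes stood. These 5 were Vldlr, Abca1, Gramd1b, Cyp51 and Nsdhl. A fit with group alone, which counts 4 residual degrees of freedom that the columns do not hold, called 7 of the 31 as higher against 3.9% of all genes. It called 2 as lower against 2.77%. The 7 were Fdps, Cyp51, Tm7sf2, Msmo1, Nsdhl, Insig1 and Npc1, and the 2 were Vldlr and Abca1.

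In size, 1 gene was higher by 1.5-fold or more (2.19% of all genes) and 3 were lower by as much (2.7%). A positive difference was found for 20 of the 31, or 64.5%, against 53.8% of all genes. All high arrays lay above all low arrays for 13 genes, or 41.9%, against 19.3% of all genes, and below them for 6, or 19.4%, against 13.9%. The median difference over the 31 was 0.18, beside 0.02 over all genes.

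**Figure D1:**
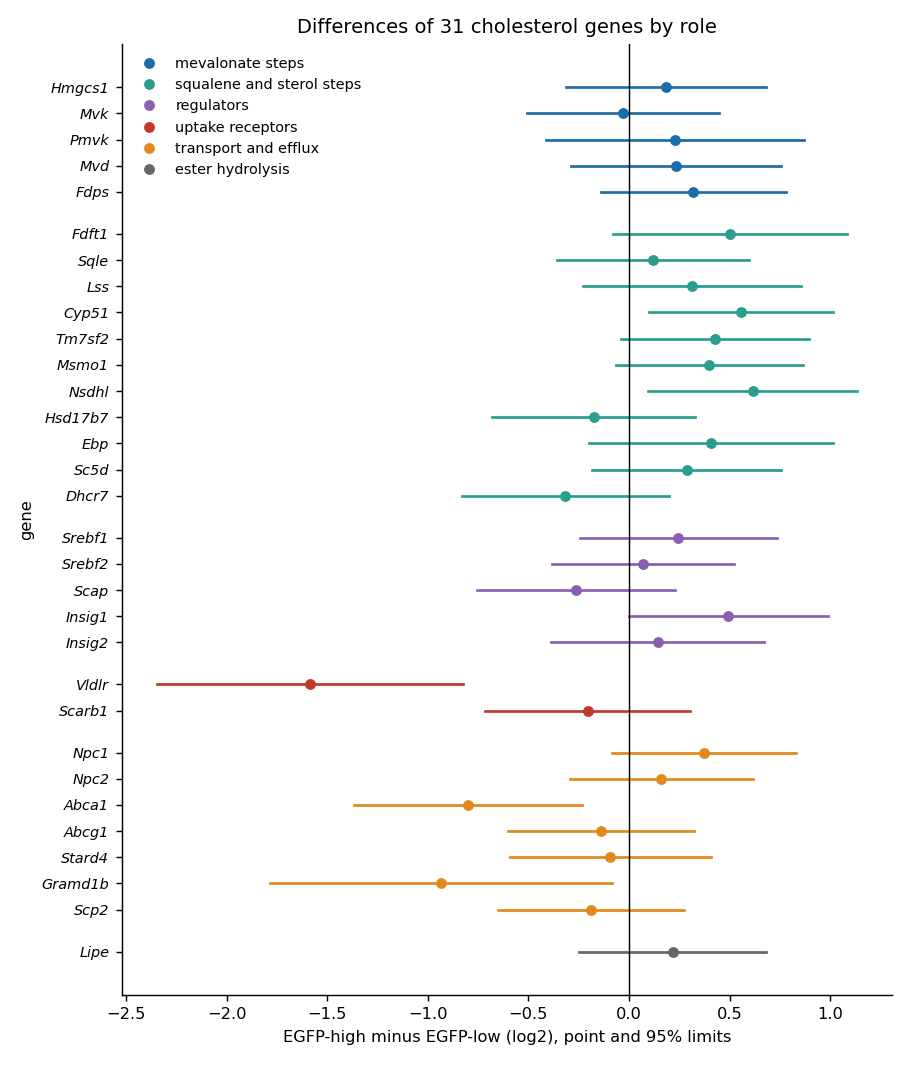
EGFP-high minus EGFP-low on the log2 scale for the 31 measured genes, grouped by role, as points with 95% limits from limma with the array-set term. The limits exclude 0 for Cyp51 and Nsdhl on the right and for Vldlr, Abca1 and Gramd1b on the left.

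The early, mevalonate part of the path read slightly higher as a whole, and none of its genes stood far from 0. Of 5 measured genes, 4 were above 0 with a median difference of 0.23. Fdps, which makes farnesyl diphosphate, the branch point to sterols and to protein prenylation, differed most. It read 5.94, 5.91 and 5.84 on the low arrays and 6.17, 6.22 and 6.26 on the high arrays, so the populations did not overlap. Its difference was 0.32 (−0.14 to 0.78), with limma adjusted p-values of 0.862 (array-set fit) and 0.0489 (group-only fit).

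Hmgcs1, the cytosolic synthase that condenses acetyl-CoA units on the way to mevalonate, differed by 0.18 (−0.31 to 0.68). Its low arrays read 8.14, 8.39 and 8.04 and its high arrays 8.43, 8.37 and 8.32, and low 2 lay within the high range. Pmvk and Mvd, a kinase and a decarboxylase that follow mevalonate, each differed by 0.23, with limits of −0.41 to 0.87 and −0.29 to 0.76. For both genes the populations overlapped, and low 3 was the lowest array. Mvk, the first kinase of the path, was the exception at −0.03 (−0.51 to 0.45), and its sign turned with the array set, −0.24 for high 1 against low 1 and 0.13 for high 3 against low 2 and low 3.

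The squalene and sterol part of the path held the larger positive differences. Of 11 genes, 9 were above 0 and 2 below, with a median of 0.40, and 6 had high arrays that all lay above the low arrays, as did 19.3% of all genes and 32.1% and 22.3% of those in the brightest and next of 4 equal groups by mean level. In every one of these 11 genes the sign was the same in both array sets. Limma with group alone called 4 of them as higher, against 3.9% of all genes.

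Nsdhl, a dehydrogenase of the demethylation that follows lanosterol, had the largest positive difference of the 31 over all 6 arrays. It read 5.57, 5.79 and 5.89 on the low arrays and 6.54, 6.36 and 6.19 on the high arrays. The lowest high array was above the highest low array. The difference was 0.61 (0.09 to 1.14), or 1.53-fold, with limma adjusted p-values of 0.824 (array-set fit) and 0.0461 (group-only fit). It was 0.97 for high 1 against low 1 and 0.35 for high 3 against low 2 and low 3, and these are also its values without high 3 and without low 1 or high 1. Without low 1 or high 1, Insig1 at 0.71, Cyp51 at 0.49, Pmvk at 0.394, Fdps at 0.386 and Npc1 at 0.351 were further above 0 than Nsdhl at 0.349.

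Cyp51, the lanosterol demethylase, had tighter replicates. Its levels were 5.33, 5.36 and 5.42 in the low and 5.97, 5.92 and 5.88 in the high population. The gap between the populations was several times the spread within either of them. It was higher by 0.56 (0.10 to 1.01), with limma adjusted p-values of 0.816 (array-set fit) and 0.0206 (group-only fit).

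Tm7sf2, a sterol reductase of the endoplasmic reticulum and nuclear envelope, read 4.64, 4.75 and 4.77 in the low cells and 5.23, 5.15 and 5.07 in the high cells. Msmo1, the methylsterol monooxygenase that works in the same demethylation as Nsdhl, read 6.83, 6.99 and 6.84 against 7.35, 7.29 and 7.23. Neither gene overlapped between populations. The differences were 0.43 (−0.04 to 0.90) and 0.40 (−0.07 to 0.87), with limma adjusted p-values of 0.847 and 0.852 in the array-set fit and 0.0378 and 0.0424 in the group-only fit.

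Fdft1, the squalene synthase that commits farnesyl diphosphate to sterols, differed by 0.50 (−0.08 to 1.08), and its array sets were far apart at 0.96 and 0.16. Ebp, a sterol isomerase, differed by 0.41 (−0.20 to 1.01), Lss, which closes the lanosterol rings, by 0.31 (−0.23 to 0.86), and Sc5d, a late desaturase, by 0.29 (−0.18 to 0.76). The array sets also differed for Ebp (0.59 and 0.27) and Lss (0.60 and 0.10). Sqle, the squalene epoxidase and a known control point of the path, was close to 0 at 0.12 (−0.36 to 0.60). The limits of these enzymes overlap, and whether they differ among themselves was not tested.

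The 2 sterol enzymes below 0 were Dhcr7 and Hsd17b7. Dhcr7, which carries out the last reduction to cholesterol, read 6.05, 6.01 and 5.71 in the low and 5.48, 5.61 and 5.74 in the high cells. High 3 lay just above low 3, so the populations overlapped, and the difference was −0.32 (−0.83 to 0.20), with −0.58 in the set of high 1 and low 1 and −0.12 in the other. Hsd17b7 differed by −0.18 (−0.68 to 0.33), with the same −0.18 in each array set. Its product reduces a ketone in sterol demethylation and is also known in rodents as the luteal enzyme that makes estradiol from estrone.

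**Figure D2:**
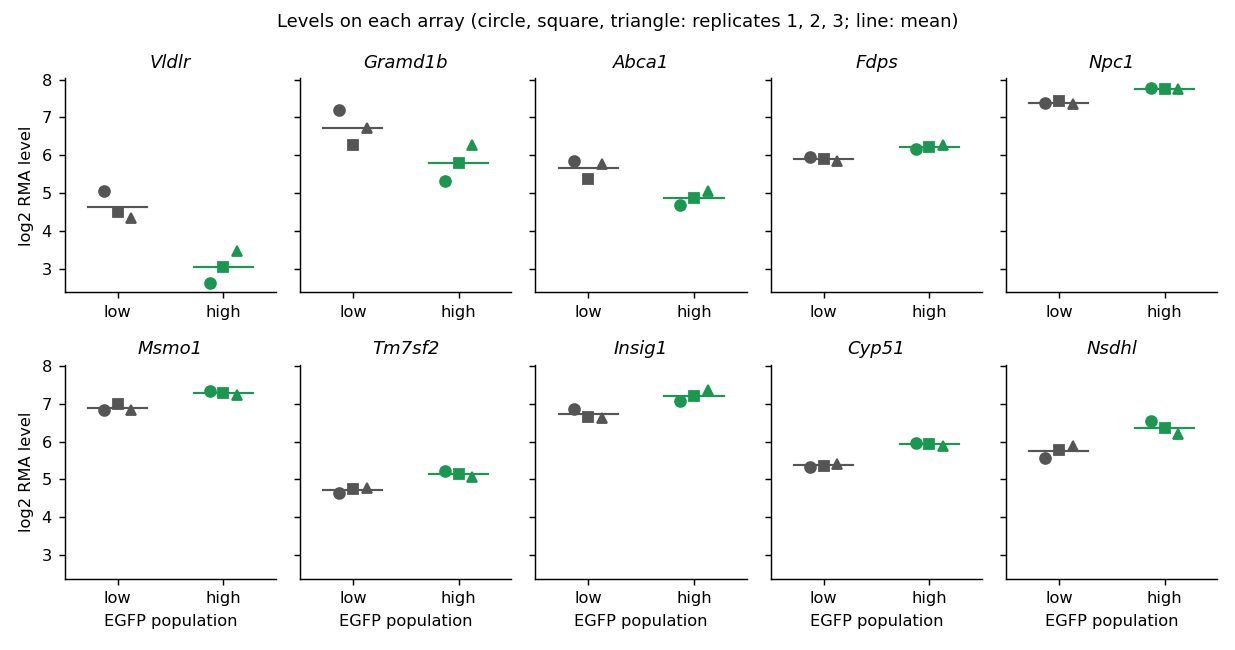
Log2 RMA level on every array of the 10 cholesterol genes with a difference of at least 1.5-fold, an unadjusted p under 0.05 or a call with group alone, where grey marks the low and green the high population. Vldlr, Gramd1b and Abca1 sit lower in the high cells and the other 7 higher, and high replicate 2 always lies midway between high 1 and high 3.

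Promoters of these genes were read to show what the enzymes share in sequence. RefSeq windows of GRCm38.p6, from 250 bases before to 50 after a gene's start, were found for 13 of the 16 measured enzymes, the exceptions being Fdps, Fdft1 and Sqle. All 13 held at least 1 copy of CCAAT, the box bound by NF-Y, a factor known to work beside SREBP, on one strand or the other. Among all genes with such a window, 41.1% did. Among 5 measured genes of uptake, transport and ester hydrolysis with a window, 2 did, and 4 of 5 regulators did. The sterol regulatory element core TCACNCCAC was found in Hmgcs1 alone of these, against 1.44% of all genes. The E-box CACGTG was in 3 of the 13 enzymes against 8.09% of all genes. The NR5A motif CAAGGTCA, read by factors of steroid-producing cells, was in Dhcr7 alone, against 1.76% of all genes. Genes with several windows were counted once if any window held a motif, both strands were searched, no place was shared by 2 of these motifs in the windows printed here, and a match is a description of letters and not a site.

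The windows of the enzymes with the strongest positive values, of the enzyme with the sterol element and of both genes with the lowest values and a window are given 5′ to 3′ on the gene's strand, with matches to any of the 4 motifs in capitals. Nsdhl lies at chrX:72918271-72918570 (plus strand), Cyp51 at chr5:4104648-4104947 (minus), Hmgcs1 at chr13:119690101-119690400 (plus), Vldlr at chr19:27216770-27217069 (plus, the second of 2 windows) and Abca1 at chr4:53159846-53160145 (minus).
Nsdhl: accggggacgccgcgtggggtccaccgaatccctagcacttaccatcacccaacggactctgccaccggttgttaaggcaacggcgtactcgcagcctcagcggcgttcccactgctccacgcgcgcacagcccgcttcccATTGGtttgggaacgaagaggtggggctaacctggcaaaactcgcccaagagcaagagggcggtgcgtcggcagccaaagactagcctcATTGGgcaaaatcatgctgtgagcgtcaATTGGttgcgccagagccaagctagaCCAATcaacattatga
Cyp51: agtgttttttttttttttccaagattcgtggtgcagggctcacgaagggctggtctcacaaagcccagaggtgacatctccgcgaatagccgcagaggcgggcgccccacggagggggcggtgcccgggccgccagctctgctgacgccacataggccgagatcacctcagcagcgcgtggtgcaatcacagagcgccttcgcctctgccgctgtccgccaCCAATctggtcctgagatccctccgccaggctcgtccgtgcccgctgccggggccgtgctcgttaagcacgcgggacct
Hmgcs1: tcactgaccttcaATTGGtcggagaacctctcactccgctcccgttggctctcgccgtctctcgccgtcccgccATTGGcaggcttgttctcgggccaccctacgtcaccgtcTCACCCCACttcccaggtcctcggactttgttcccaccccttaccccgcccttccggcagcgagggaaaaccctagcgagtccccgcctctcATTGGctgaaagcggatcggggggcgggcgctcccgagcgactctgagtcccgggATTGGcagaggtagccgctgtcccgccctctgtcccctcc
Vldlr: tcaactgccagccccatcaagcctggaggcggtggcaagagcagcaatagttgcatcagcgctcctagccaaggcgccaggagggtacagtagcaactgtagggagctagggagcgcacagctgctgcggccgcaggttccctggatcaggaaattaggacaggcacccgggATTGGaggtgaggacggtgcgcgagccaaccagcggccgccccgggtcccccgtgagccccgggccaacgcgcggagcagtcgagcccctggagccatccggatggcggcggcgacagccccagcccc
Abca1: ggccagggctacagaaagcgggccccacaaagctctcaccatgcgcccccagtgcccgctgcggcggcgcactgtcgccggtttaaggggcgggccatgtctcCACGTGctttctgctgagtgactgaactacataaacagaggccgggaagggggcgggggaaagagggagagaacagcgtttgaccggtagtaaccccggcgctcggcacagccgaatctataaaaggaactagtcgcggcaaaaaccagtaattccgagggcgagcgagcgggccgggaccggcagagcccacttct

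Nsdhl carries 4 copies of the CCAAT box in this window, as does Hmgcs1, and Cyp51 carries 1. The sterol element of Hmgcs1 begins at −137 relative to the start. Vldlr has a CCAAT box on the opposite strand and no other match, while its first window has 0 copies. In Abca1 the capitals mark an E-box. Hmgcs1, with the richest window of the 5, had one of the smaller differences among the enzymes, 0.18 beside 0.61 for Nsdhl.

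Of 5 sterol-sensing regulators 4 were above 0 and 1 below, with a median difference of 0.14. Srebf2, the transcription factor that governs most of the synthesis genes, read 7.52, 7.53 and 7.54 in the low and 7.61, 7.60 and 7.59 in the high cells. All high arrays lay above the low ones by a small gap, and the difference was 0.07 (−0.38 to 0.52). That sign was negative after quantile normalization (−0.049) and after removal of the trend with level (−0.064). Srebf1, whose products act more on fatty acid genes, differed by 0.25 (−0.25 to 0.74).

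Insig1, which retains SCAP in the endoplasmic reticulum and is itself a target of SREBP, was the regulator with the largest difference. Its levels were 6.86, 6.66 and 6.63 on the low arrays and 7.07, 7.21 and 7.35 on the high arrays, with no overlap. It was higher by 0.49 (−0.00150 to 0.99), or 1.41-fold, with limma adjusted p-values of 0.841 (array-set fit) and 0.0490 (group-only fit). Its paralogue Insig2 differed by 0.14 (−0.39 to 0.67), with overlapping arrays.

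Scap, the escort protein, went the other way at −0.26 (−0.75 to 0.23). Its low arrays read 7.87, 7.64 and 7.70 and its high arrays 7.34, 7.48 and 7.61, all below the low ones. A second, dimmer probe set gave −0.37 (−1.03 to 0.29). Most of this came from 1 array set, with −0.53 for high 1 against low 1 and −0.06 in the other.

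Among receptors that bring lipoprotein cholesterol into cells, Vldlr was much lower in the EGFP-high population. The product of Vldlr binds triglyceride-rich lipoproteins and reelin. It read 5.06, 4.51 and 4.35 on the low arrays and 2.63, 3.05 and 3.47 on the high arrays. Every high array was below every low array by a wide margin, although the arrays within each population also ranged widely. By mean level Vldlr was the dimmest of the 31, at percentile 45.0 of all genes. Its high arrays read below the array medians of 3.76 to 3.85, so the size of the difference is less certain. The difference was −1.59 (−2.35 to −0.83). The limma adjusted p was 0.751 in the array-set fit and 0.0303 in the group-only fit. It was −2.43 for high 1 against low 1 and −0.96 for high 3 against low 2 and low 3.

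Scarb1, the HDL receptor through which steroid-producing cells take up cholesteryl ester, did not follow Vldlr. It read 8.14, 7.89 and 7.89 in the low and 7.60, 7.77 and 7.93 in the high cells. The populations overlapped, and the difference of −0.21 (−0.72 to 0.31) was −0.54 in one array set and 0.043 in the other. Without low 1 or high 1 its sign turned, also to 0.043.

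Inside the cell, cholesterol leaves late endosomes through NPC2 and NPC1. Npc1, the membrane protein of this pair, read 7.37, 7.44 and 7.34 on the low arrays and 7.77, 7.76 and 7.74 on the high arrays. The populations were clearly apart, and the array sets were alike at 0.40 and 0.35. Its difference was 0.37 (−0.08 to 0.83), with limma adjusted p-values of 0.852 (array-set fit) and 0.0340 (group-only fit). A dim second probe set of Npc1 did not show it, at −0.09 (−0.60 to 0.41). Npc2, the soluble partner, differed by 0.16 (−0.30 to 0.62), again with all high arrays above the low ones.

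Abca1, which loads cholesterol onto lipid-poor apolipoprotein and is a classical target of liver X receptors, was lower. Its low arrays read 5.85, 5.38 and 5.77 and its high arrays 4.68, 4.87 and 5.05. The arrays did not overlap, and both array sets had the same sign, −1.17 and −0.52. The difference was −0.80 (−1.37 to −0.23), or 1.74-fold, with limma adjusted p-values of 0.787 (array-set fit) and 0.0423 (group-only fit). Abcg1, the transporter that passes cholesterol to HDL, differed by −0.14 (−0.60 to 0.32), with the high arrays all below the low ones by a small gap.

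Gramd1b, known as Aster-B, a protein that moves cholesterol from the plasma membrane to the endoplasmic reticulum, was also lower. It read 7.19, 6.26 and 6.71 in the low and 5.32, 5.79 and 6.26 in the high cells. Low 2 and high 3 nearly met, so the populations were barely apart. The difference was −0.94 (−1.79 to −0.09), made up of −1.87 in the set of high 1 and low 1 and −0.23 in the other. Neither fit called it, with limma adjusted p-values of 0.838 (array-set fit) and 0.124 (group-only fit).

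The soluble carriers were near 0. Stard4, a carrier that is itself regulated by sterols, differed by −0.09 (−0.59 to 0.41), with 0.18 and −0.30 in the array sets. Scp2, a peroxisomal thiolase and lipid carrier, differed by −0.19 (−0.65 to 0.27). Its high arrays were all below its low arrays, as for Scap. Lipe, the hormone-sensitive lipase that frees cholesterol from its esters in steroid-producing cells and triglyceride in fat cells, differed by 0.22 (−0.25 to 0.68), with high arrays above low.

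**Figure D3:**
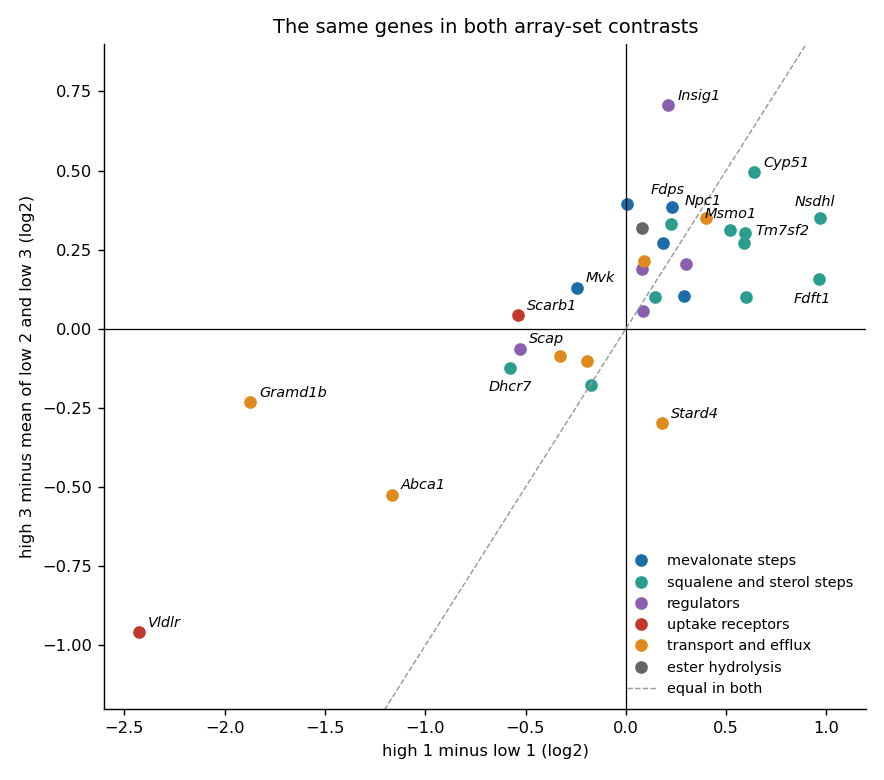
Difference of each of the 31 genes within the set of high 1 and low 1 (horizontal) and within the set of high 3, low 2 and low 3 (vertical), both on the log2 scale, with a dashed line where they would be equal. Of the 31 genes 28 have the same sign in both, 20 above 0 and 8 below, while Mvk, Scarb1 and Stard4 do not, and Vldlr and Gramd1b lie far from the line.

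The array sets bear on how firmly each value can be read. Both contrasts had the same sign for 28 of 31 genes, beside 12227 of all 22180, but the columns are linked, so the contrasts are not 2 separate measurements. Vldlr, Gramd1b and Abca1 were all further from 0 in the set with high 1 and low 1 than in the other. Nsdhl and Fdft1 were also larger there, whereas Insig1 was larger in the set with high 3 (0.21 and 0.71). Cyp51 and Npc1 were close in both. Among smaller differences, Pmvk (0.01 and 0.39) and Lipe (0.08 and 0.32) came mostly from the set with high 3, and Hmgcs1 (0.29 and 0.10) and Scp2 (−0.33 and −0.09) mostly from that with high 1.

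In the authors' deposited table of 1134 probe sets at 1.5-fold or more, 3 of the 31 genes were listed, all as lower. The authors' deposited table gave ratios of high over low of 0.348 for Vldlr, 0.535 for Gramd1b and 0.564 for Abca1. On the log2 scale the ratios of the authors' deposited table are −1.52, −0.90 and −0.83, beside −1.59, −0.94 and −0.80 from the value table. Nsdhl, at 1.53-fold in the value table, was not among the genes listed there.

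Level also moved with these counts, and brighter genes read slightly higher in the EGFP-high cells across the whole array. All genes were split by mean level into 4 equal groups, and the brightest held 15 of the 31, the next 15 and the one below it 1. In the brightest group 71.5% of all genes had a positive difference, and all high arrays lay above all low arrays for 32.1%. In the next group these shares were 60.4% and 22.3%. Of the enzymes of synthesis 7 of 8 in the brightest group and 6 of 8 in the next were above 0. With the trend of difference on level removed, 13 of 16 enzymes were above 0, their median was 0.19 in place of 0.30, and that of the uptake, transport and ester genes was −0.25. Median centring and quantile normalization gave 0.36 and 0.20 for the enzymes and −0.11 and −0.23 for the others. The median over all 31 was 0.09 with the trend removed.

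**Figure D4:**
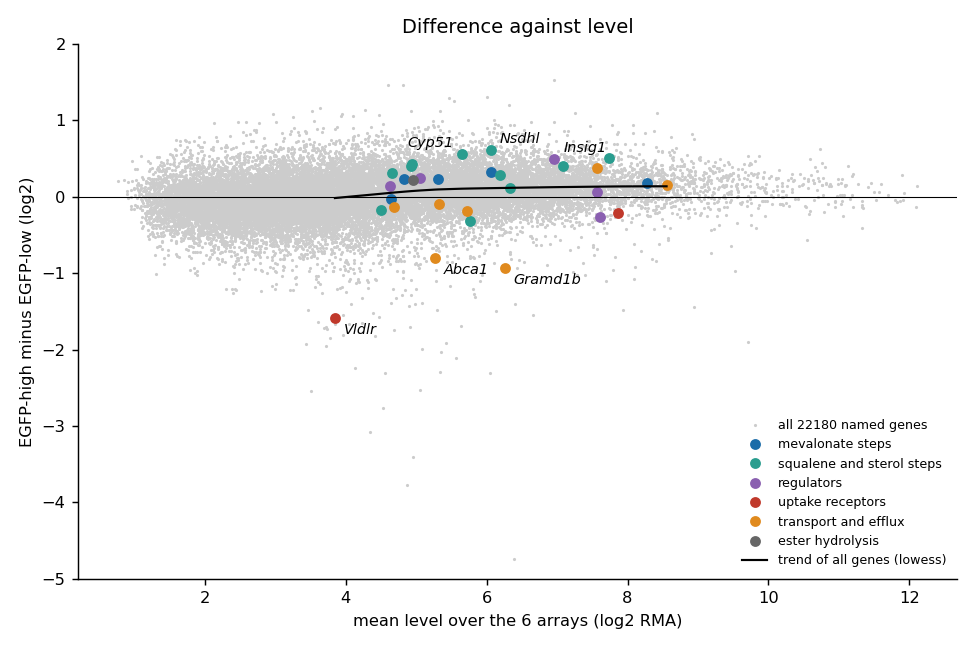
EGFP-high minus EGFP-low (log2) against mean level over the 6 arrays (log2 RMA), with all 22180 named genes in grey, the 31 cholesterol genes coloured by role and the trend of all genes as a black line. The trend sits above 0 over most of the range of the 31 genes, and Vldlr, Gramd1b and Abca1 lie well below it.

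Of 67 further genes of cholesterol and linked lipid metabolism, 55 were measured, 32 of them above 0 (53.8% of all genes were) and 23 below, with a median of 0.10. Limma called 0 of them with the array-set term and had 6 at an unadjusted p under 0.05, where 5.92% of all genes stood. With group alone it called 5 as higher and 4 as lower, against 3.9% and 2.77% of all genes. Of the further receptors named, Lrp8 and Cd36 were below 0 and Lrpap1 and Lsr above. Lrp8, a close relative of Vldlr and also a reelin receptor, read 5.29, 5.09 and 5.20 in the low and 4.27, 4.36 and 4.46 in the high cells. The populations did not overlap, and the difference was −0.83 (−1.31 to −0.35). Cd36, a fatty acid and lipoprotein scavenger, was at −0.94 (−1.47 to −0.42), whereas Lrpap1, the chaperone of this receptor family, was at 0.29 (−0.19 to 0.78) and Lsr at 0.28 (−0.25 to 0.80).

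In the transport list, Apoa1, the apolipoprotein that accepts cholesterol from ABCA1, was at −1.32 (−1.93 to −0.71). Its low arrays read 5.01, 4.48 and 5.16 and its high arrays 3.44, 3.57 and 3.69. Stard3, a late-endosomal cholesterol carrier that works beside NPC1, was higher by 0.75 (0.26 to 1.24), with 4.58, 4.40 and 4.38 against 5.07, 5.20 and 5.34. Neither gene overlapped between populations. Cav1, the caveolar protein, was at 0.48 (0.02 to 0.94) and the transporter Abca7 at −0.42 (−0.91 to 0.07).

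Of regulators outside the main list, Nr1h3, which encodes a liver X receptor, was higher by 0.59 (0.07 to 1.11), with low arrays at 2.75, 2.40 and 2.79 and high arrays at 3.14, 3.24 and 3.35. Nr1h3 was dim, with a mean level of 2.95, at percentile 25.2 of all genes. Abca1, a known target of that receptor, had a difference of the opposite sign, and a link between them was not tested. Mbtps2, a protease that releases SREBP, was at −0.63 (−1.36 to 0.10), the sterol-responsive ligase Rnf139 at −0.25 (−0.80 to 0.29) and the microRNA gene Mir33, which lies in an intron of Srebf2, at −0.21 (−0.82 to 0.39). Among ester and oxysterol genes, Plin2, a coat protein of lipid droplets, was at 0.43 (−0.08 to 0.94), Cyp39a1 at 0.59 (−0.11 to 1.30), Ch25h at −0.39 (−0.86 to 0.08) and Lcat at −0.39 (−1.01 to 0.23). Among synthesis genes, Acat1, the mitochondrial thiolase, was at 0.33 (−0.13 to 0.79).

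Markers of other ovarian cells also differed between the populations. Below 0 were 10253 of all 22180 genes. In the dimmest and next of 4 equal groups by mean level, 39.3% and 43.9% of genes were above 0. Of 12 markers of luteal and theca cells 8 were measured and 5 were below 0, with a median of −0.60. Their summed unlogged RMA signal ran from 1111 to 1548 on the low arrays and from 692 to 814 on the high arrays. Cyp11a1, which turns cholesterol into pregnenolone, fell by 4.74 on the log2 scale (limma adjusted p 0.0140 in the array-set fit), and Hsd3b1, the next enzyme, was at −2.76 (−3.84 to −1.69). Hsd3b1 read 6.56, 5.83 and 5.34 on the low and 2.50, 3.15 and 3.79 on the high arrays. Star, which carries cholesterol into mitochondria, was at 0.33 (−0.12 to 0.79).

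Granulosa markers had a median of −0.79, with 7 of 8 below 0, beside 10253 of all 22180 genes. Their summed signals were 235 to 410 on the low and 144 to 206 on the high arrays. For leukocyte markers, which include macrophage genes, 14 of 15 were below 0 with a median of −0.65, and the sums were 268 to 653 and 183 to 199. Lyz2 was at −3.77 (−5.26 to −2.28), and Ptprc was dim in both populations, at 2.43 and 2.06. Adipocyte markers had 7 of 8 below 0, a median of −0.26 and sums of 94.3 to 145 and 64.9 to 76.1, with Adipoq dim at 2.37 and 2.62. Stromal markers had 8 of 9 below 0, a median of −0.37 and sums of 702 to 1004 and 622 to 630, with Col1a2 at −3.08 (−4.10 to −2.06). Another probe set that the authors' deposited table lists for Col1a2 was at only −0.78 in the value table.

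The surface epithelium markers ran the other way, with sums of 10518 to 10859 on the low and 12531 to 12909 on the high arrays. Krt18 was at 0.62 (0.15 to 1.09) and Krt8 at 0.30 (−0.19 to 0.80). Endothelial markers had 4 of 7 below 0 and a median of −0.05. For every list but the endothelial one, the sums of the 2 populations did not overlap. The sums over all named genes did not overlap either, at 1268730 to 1321890 on the low and 1368980 to 1381340 on the high arrays. A sum adds levels across genes and is led by the brightest of them. The part of these cell types in the values of Vldlr, Abca1, Gramd1b and the enzymes was not tested.

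**Figure D5:**
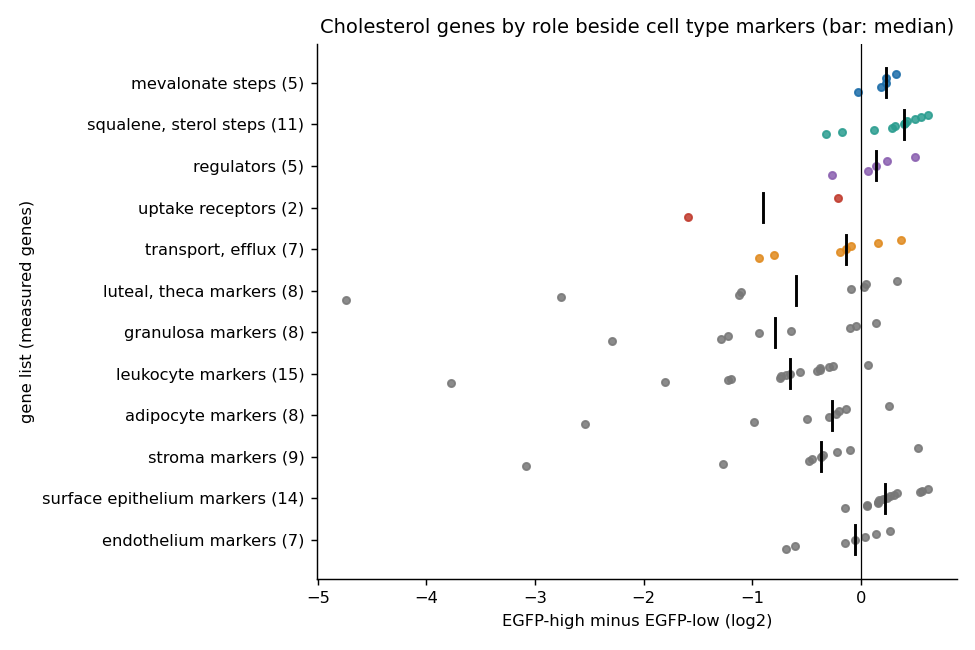
EGFP-high minus EGFP-low (log2) of the cholesterol genes by role and of marker genes of 7 cell types, where each point is a gene, black bars are medians and the number of measured genes stands in brackets. The enzyme lists and the surface epithelium markers have medians above 0, and the uptake, transport, luteal, granulosa, leukocyte, adipocyte, stroma and endothelium lists have medians below 0.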

How the data were processed

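The value table that the authors deposited holds log2 levels of 41345 probe sets on 6 Affymetrix Mouse Gene ST arrays (array medians 3.76 to 3.85). Affymetrix Expression Console and RMA are named, without versions, per the submitters' processing notes. A genome build for the array annotation is not given in the sources used here. A second table deposited by the authors, with linear ratios of high over low at 1.5-fold or more, was used to describe genes. All value columns matched a sample, with 0 unmatched.

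The platform annotation gave 23521 probe sets 1 symbol and 1820 several, and 16004 were unlisted. The brightest probe set by mean stood for each of 22180 genes, 1082 of which had more than 1. No filter or further normalization was applied. High minus low was fitted across all genes by lmFit and eBayes of limma (version 3.58.1, under R 4.3.3), two-sided, with Benjamini-Hochberg adjustment over all genes and a threshold of 0.05, with group and array set as terms. Limits are 95% limits, not adjusted for the number of genes. Second probe sets were fitted over all probe sets. The number of arrays limits the precision. The procedure was checked on simulated data. The members, gene lists, array sets and tests were chosen with earlier results of these data known. Every member is named. Levels on every array are given for members that differed by 1.5-fold, had an unadjusted p under 0.05 or were called with group alone, and for some others beside them. Up to 4 genes with the smallest p are named from each further list, and from the marker lists a fixed few. Whether replicate numbers in the labels pair the samples cannot be told from these values, because the column relations link the deviations from the group means. These relations fix the correlation of number 1 at −1 and the deviations of high 2 at 0. For number 3 the correlation was −0.30. Alternatives were the fit with group alone, the replicate number as a block, median centring, quantile normalization, removal of the trend with level, omission of dim genes, the mean of probe sets, all probe sets, a variance trend and each array left out.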

Additional observations from a re-analysis of the deposited data

How the results depend on the processing

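Of 31 genes, 27 kept the sign of their difference under every alternative in which they were fitted. These were 15 for each gene but Vldlr, which had 14 because the omission of dim genes removes it. In the main fit the other 4 differed by −0.03 (Mvk), −0.21 (Scarb1), −0.09 (Stard4) and 0.07 (Srebf2). Mvk turned to 0.026 with median centring and ranged from −0.24 to 0.13 as single arrays were left out, Scarb1 ranged from −0.54 to 0.043, Stard4 from −0.30 to 0.18, and Srebf2 turned to −0.049 with quantile normalization and −0.064 with the trend on level removed. No cholesterol gene was called under any alternative but group alone, which called 9 of the 31, 9 of the 55 further genes, 1479 of all genes, and Lgr5 (1.10, limma adjusted p 0.0151). With the replicate block, limma called 0 of the 31 and 4 of all genes. The replicate block changed no call of a cholesterol gene or of Lgr5. Without high 3, which leaves high 1 against low 1 for the difference, limma called 23 of all genes and 0 of the 31, with a smallest adjusted p of 0.0796. The median over the 31 ranged from 0.09 to 0.24 under the alternatives, and from 0.14 to 0.18 with single arrays left out. Leaving out low 1 or high 1 gives the same fit, and leaving out high 2 changes nothing. The 3 arrays of a population stand for fewer independent readings, and this limits every value.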

Other observations

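Fatty acid synthesis and desaturation genes, which answer mainly to the product of Srebf1, had differences on both sides of 0. This subset of 7 genes was chosen after the values were seen. Of these, 2 were above 0 and 5 below, with a median of −0.07, and limma called 0 in the array-set fit (0 at an unadjusted p under 0.05) and 0 in the group-only fit. Acss2, which makes acetyl-CoA from acetate, read 4.90, 5.09 and 5.20 in the low and 4.77, 4.60 and 4.44 in the high cells, a difference of −0.46 (−0.98 to 0.05). Scd1, a stearoyl-CoA desaturase, was at −0.46 (−1.14 to 0.22), with overlapping arrays. Scd2 is not among the 7, as it had no value under the probe set rule used here. The authors' deposited table lists a probe set of Scd2 with a ratio of 0.543, and it was at −0.94 in the value table. Fads1, a desaturase of long polyunsaturated fatty acids, was at 0.21 (−0.25 to 0.66), with all high arrays above the low ones, and Fads2 at 0.08 (−0.38 to 0.54). The cytosolic enzymes Acly and Fasn were at −0.15 (−0.81 to 0.51) and −0.04 (−0.62 to 0.54), and the elongase Elovl6 at −0.07 (−1.32 to 1.19). Whether this subset differs from the sterol enzymes was not tested.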
